A study of Homo sapiens with 12 samples.

Results

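The response of low-folate EA.hy 926 cells to pemetrexed was measured on 6 of the 12 arrays of the series, 3 of treated cells and 3 of control cells, and is described over all 18417 genes that had a probe set with a single gene symbol. EA.hy 926 is an established line, made by fusing human umbilical vein endothelial cells with the lung carcinoma line A549. The study asked whether the antifolate drug alters the inflammatory profile of such cells when folate is scarce. Cells called Lo had been adapted to Medium 199 with 23 nM folic acid, and parallel cultures called Hi were kept with 9 uM folic acid. Both media held 10% fetal calf serum, non-essential amino acids and antibiotics. Cells had grown to confluence and received new medium 24 h before 0.5 uM pemetrexed (PMX) was added for 48 h. What the control cells received in place of the drug was not given in the sources used here. The 4 groups of 3 biological replicates were therefore Lo control, Lo PMX, Hi control and Hi PMX, all of the same line, and each of the Lo and Hi cells was 1 adapted culture as far as the labels say.

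Pemetrexed is a folate analogue that enters cells through folate carriers, is retained by polyglutamation and inhibits thymidylate synthase as well as enzymes of purine synthesis. Cells that cannot make thymidylate stall in DNA replication, and stalled replication is known to activate checkpoint kinases and p53. Folate in the medium competes with the drug for uptake, polyglutamation and enzyme binding, and rescues its toxicity in culture.

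All values are log2 expression values, and a difference of 1 is a 2-fold difference. The array labelled Lo control replicate 3 stood apart from its group. On the first principal component of the 18417 genes, which held 61.1% of the variance, the treated Lo arrays lay between 30.4 and 32.2 and the Lo controls 1 and 2 at 7.18 and 6.75, but the array labelled Lo control 3 lay at -19.3. Hi arrays lay between -20.1 and -17.8, except the array labelled Hi control 3 at 8.94. The array labelled Lo control 3 had a mean correlation of 0.9974 with the Hi PMX arrays and of 0.9922 with Lo controls 1 and 2, which correlated at 0.9973 with each other. The values of both arrays go against their labels. Whether the 2 labels were exchanged was not tested, and if they were, each value with all arrays counts a Hi array among the Lo controls. Both arrays were used under their labels, and calls were made with all arrays and without the array labelled Lo control 3. In the text a gene "rose" or "fell" if limma called it at a Benjamini-Hochberg adjusted p under 0.05 both with all 12 arrays and without that array. Where 2 values of a change are given, the one with all arrays comes before the one without it.

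The cells carried endothelial transcripts. Of 15 measured endothelial markers, 12 lay above the median of all genes, with a mean level of 10.14 to 10.18 in Lo controls 1 and 2, 10.79 in the array labelled Lo control 3 and 9.75 to 9.88 in treated cells. The 15 epithelial and lung carcinoma markers had a mean of 7.73 to 7.83 in Lo controls 1 and 2, 7.72 in the array labelled Lo control 3 and 7.79 to 7.81 after treatment. Fibroblast markers (13, mean 7.09 to 7.29) and leukocyte markers (14, mean 7.28 to 7.48) stayed in narrow ranges over the 6 arrays, and in these 3 lists the 1 gene that changed by the rule above was LYZ, which codes for lysozyme (-0.96 without the array labelled Lo control 3).

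Pemetrexed changed the Lo cells broadly. With all arrays 1978 genes, 10.7% of those tested, were called in limma with Benjamini-Hochberg adjustment, 1031 of them (5.6%) higher and 947 (5.14%) lower in treated cells. Without the array labelled Lo control 3 there were 1210 (6.57%), and 1146 (6.22%) were called both ways, all in the same direction. Of these 1146 genes 598 rose (3.25%) and 548 fell (2.98%), and in each of them the 3 treated arrays lay apart from all 3 controls. Such separation of the 6 arrays was found for 5480 genes (29.8%). Over all genes the median change was 0.019 with and 0.026 without the array. Because the values come from whole cultures, a fall in the share of cells in a given state and a fall in RNA per cell cannot be told apart.

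The array labelled Lo control 3 bore more on the genes that rose than on those that fell. Of 106 genes called and at least 2-fold higher with all arrays, 43 were under 2-fold without it, and of 123 genes at least 2-fold lower, 25 were. By both fits 151 genes (0.82%) changed at least 2-fold, of which 55 (0.299%) rose and 96 (0.521%) fell. The median standard error of a change was 0.093 with all arrays, 0.103 without that array and 0.092 when the array labelled Hi control 3 was also left out. That last fit of 10 arrays called 2018 genes (11%), among them all 1146. Its Lo changes are the same as without the array labelled Lo control 3 alone and only the estimate of the spread differs, so it is no independent support.

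**Figure D1:**
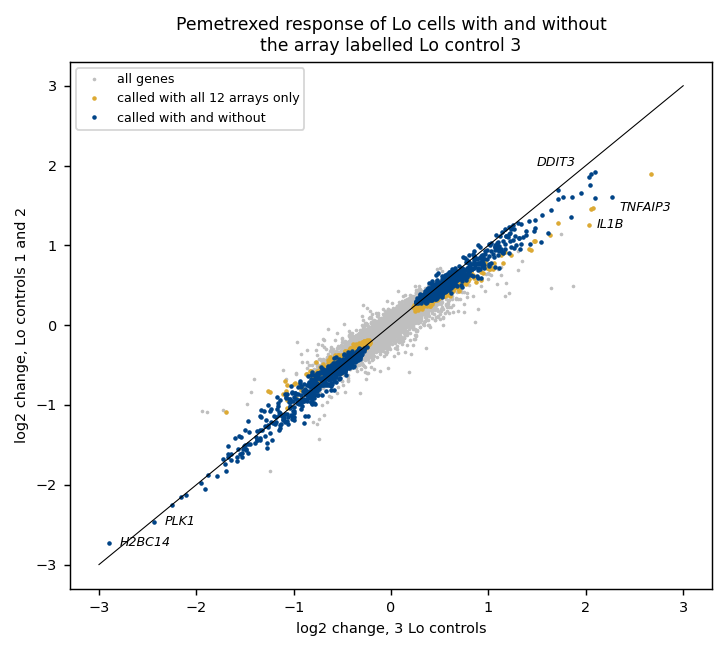
Change of each of 18417 genes in Lo cells on pemetrexed (log2, treated minus control), with all 3 Lo controls on the x axis and with Lo controls 1 and 2 on the y axis; the line marks equal values. The 1146 genes called both ways (dark points) include H2BC14 at the lower left, and many risen genes such as TNFAIP3 (2.27 against 1.61) lie under the line.

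The falls were led by genes of mitosis and chromosome packaging. The largest was in H2BC14, a replication-dependent histone H2B gene, which measured 12.21, 12.20 and 12.72 in the 3 controls and 9.48, 9.40 and 9.56 in treated cells. It was 7.45-fold lower with all arrays (-2.90 ± 0.13 SE, limma adjusted p = 3.63e-07) and 6.61-fold lower without the array labelled Lo control 3 (-2.73 ± 0.10, adjusted p = 7.77e-08). Histone genes are near-copies of each other, so the share of this single gene in the signal is uncertain. PLK1, the kinase that drives mitotic entry and spindle assembly, was next, at 12.15, 12.23 and 12.12 in controls and 9.83, 9.77 and 9.58 after treatment. The change was -2.44 ± 0.12 with all arrays and -2.46 ± 0.14 without the array in question (limma adjusted p = 2.69e-06). For PLK1 the array labelled Lo control 3 lay beside the other controls.

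Motor proteins and midzone factors followed. KIF15, a spindle kinesin, went from 8.76, 8.96 and 8.85 to 6.68, 6.68 and 6.45, a change of -2.25 by either fit. PRR11, a regulator of cell cycle progression, fell by 2.15 without the array labelled Lo control 3, from 10.41 and 10.69 to between 8.35 and 8.50. PRC1, which bundles midzone microtubules, had controls of 10.66 to 10.77 and treated values of 8.53 to 8.66. Treated arrays lay below every control in all of these genes, as the rule that chose them required. KIF20A, a kinesin of cytokinesis, and DEPDC1, a cell division gene, fell by 1.70 and 1.89 without the array.

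Kinetochore and checkpoint genes were the remainder of the 12 largest falls, with TOP2A. BUB1, a spindle checkpoint kinase, measured 10.45 and 10.58 in Lo controls 1 and 2, 10.09 in the array labelled Lo control 3 and 8.40 to 8.52 in treated cells. Its change was -1.92 ± 0.12 with and -2.06 ± 0.11 without that array (limma adjusted p = 1.83e-06). CENPI, SGO2 and SPC25, which code for a centromere protein, a protector of centromeric cohesion and a subunit of the NDC80 complex, fell by 1.98, 1.88 and 1.74 without it. TOP2A, the topoisomerase that untangles sister chromatids, had controls of 10.91, 10.95 and 10.51 and treated values of 9.01, 9.17 and 9.11 (-1.69 with, -1.83 without).

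**Figure D2:**
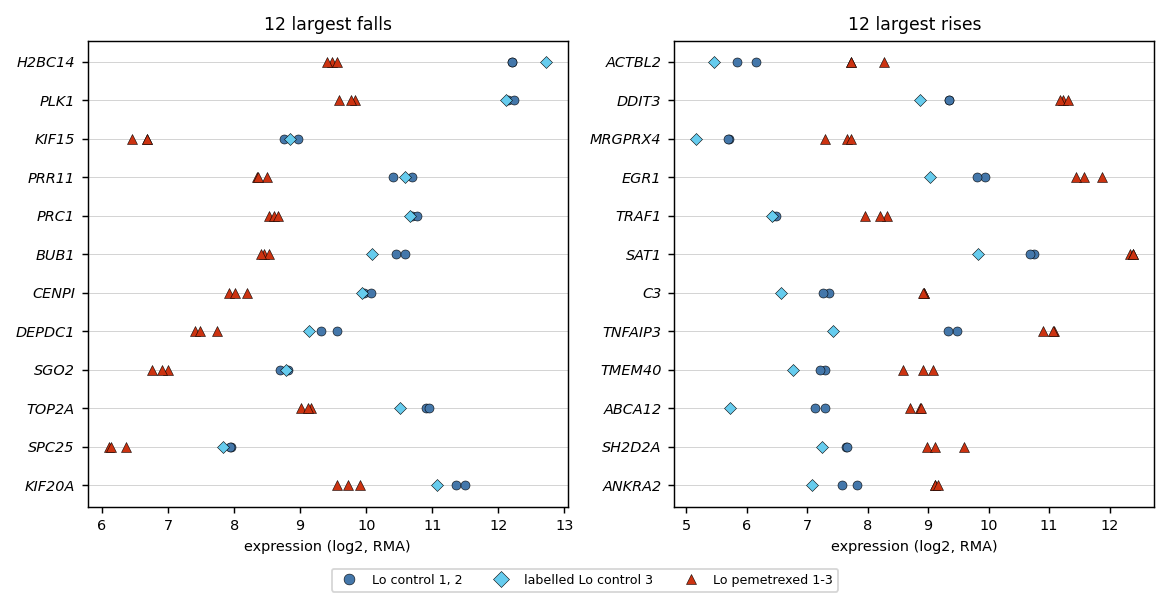
Expression (log2, RMA) of the 12 genes with the largest falls and the 12 with the largest rises in each of the 6 Lo arrays; circles are Lo controls 1 and 2, diamonds the array labelled Lo control 3 and triangles the 3 treated arrays. The 24 genes were chosen among those whose treated arrays lie apart from every control. For 12 of 12 risen genes the diamond is the lowest point (TNFAIP3 at 7.43 against 9.33 and 9.47).

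Gene lists for the steps of division are described by how many measured members changed, beside 3.25% rising and 2.98% falling over all genes. Among mitotic kinases and CDC25 phosphatases 15 of 17 fell and 0 rose, with a median change of -1.06 with and -1.15 without the array labelled Lo control 3. CIT and BUB1B, kinases of cytokinesis and of the spindle checkpoint, fell by 1.61 and 1.48. Of 28 spindle motors, midzone and cytokinesis genes 23 fell (median -1.12 without), including TACC3 at -1.14 and KIFC1 at -1.40. Of 35 centromere and kinetochore genes 21 fell, with BIRC5, which codes for survivin of the chromosomal passenger complex, at -1.02. Cohesin, condensin and topoisomerase II genes were less uniform, with 9 of 24 lower. The condensin genes NCAPH, NCAPD3 and NCAPD2 fell by 1.62, 0.93 and 0.66. Of 12 centriole genes 1 fell, STIL, which is needed to build new centrioles (-0.97).

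Regulators of the cycle changed in both directions. Among cyclins and regulators of the anaphase-promoting complex 10 of 20 fell and 0 rose, with CCNA2, CCNB1 and CCNB2 at -1.66, -1.60 and -1.56, UBE2C, its ubiquitin-conjugating enzyme, at -1.44 and SKP2, which targets CDK inhibitors for degradation, at -1.18. MKI67, the proliferation marker Ki-67, measured 10.55, 10.69 and 10.47 in controls and 9.66, 9.83 and 9.68 after treatment. Its change was smaller than that of PLK1 (-0.85 with, -0.90 without, limma adjusted p = 0.0101). Of 6 CDK inhibitors 1 rose, CDKN1A (p21), which blocks CDKs downstream of p53: it measured 11.40, 11.34 and 11.20 in controls and 12.16, 12.01 and 11.91 in treated cells (0.71 with, 0.66 without). Of 20 E2F, DREAM and FOXM1 factors 6 fell and 1 rose. FOXM1, the activator of G2 and M phase genes, went from 10.81, 10.81 and 10.78 to 9.54, 9.34 and 9.02. Without the array labelled Lo control 3 the change of FOXM1 was 2.84-fold. E2F1 fell by 0.73 and the pocket protein gene RBL1 by 0.95 without that array, and LIN37, a subunit of the DREAM repressor, rose by 0.57.

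Promoters were searched for a short element of cell cycle genes. The cell cycle genes homology region (CHR) is a hexamer near the start site at which the MuvB core of DREAM is known to bind. It was searched as TTTGAA or TTCGAA on both strands (TTCAAA is TTTGAA read on the other strand) in the RefSeq promoters of GRCh38.p14, 250 bases before to 50 after the start, of which 14237 matched a measured gene. Within 50 bases on either side of the start, 34 of 83 genes that fell at least 2-fold held a match (41%), 2 of 41 that rose at least 2-fold (4.88%) and 521 of all 14237 (3.66%). Over the whole 300 bases the shares were 55.4%, 19.5% and 13.3%. Below are 4 promoters, those of the largest falls with a match, with the hexamer in capitals, and that of DDIT3, one of the largest rises.
PLK1: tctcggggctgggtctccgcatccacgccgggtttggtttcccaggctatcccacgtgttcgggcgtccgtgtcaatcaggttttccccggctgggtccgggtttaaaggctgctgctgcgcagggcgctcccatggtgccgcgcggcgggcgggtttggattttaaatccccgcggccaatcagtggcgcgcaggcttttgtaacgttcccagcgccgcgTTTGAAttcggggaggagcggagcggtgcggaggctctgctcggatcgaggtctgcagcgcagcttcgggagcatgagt
KIF15: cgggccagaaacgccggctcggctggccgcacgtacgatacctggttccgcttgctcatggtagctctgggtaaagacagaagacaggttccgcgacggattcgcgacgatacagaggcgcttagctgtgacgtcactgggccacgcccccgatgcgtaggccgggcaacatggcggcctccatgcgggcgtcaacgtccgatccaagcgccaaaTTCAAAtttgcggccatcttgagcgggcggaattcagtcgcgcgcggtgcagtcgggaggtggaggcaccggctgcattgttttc
PRR11: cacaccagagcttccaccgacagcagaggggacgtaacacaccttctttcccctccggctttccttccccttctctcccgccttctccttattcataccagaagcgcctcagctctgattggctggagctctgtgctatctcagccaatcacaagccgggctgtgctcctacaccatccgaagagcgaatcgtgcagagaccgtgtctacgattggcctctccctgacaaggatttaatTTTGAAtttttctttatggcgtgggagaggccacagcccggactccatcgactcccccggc
PRC1: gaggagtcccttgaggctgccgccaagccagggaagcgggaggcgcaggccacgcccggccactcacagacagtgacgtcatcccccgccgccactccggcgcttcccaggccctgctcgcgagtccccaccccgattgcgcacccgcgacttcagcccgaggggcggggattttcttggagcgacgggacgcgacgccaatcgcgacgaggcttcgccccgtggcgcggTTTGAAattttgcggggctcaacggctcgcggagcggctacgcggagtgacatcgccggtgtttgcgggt
DDIT3: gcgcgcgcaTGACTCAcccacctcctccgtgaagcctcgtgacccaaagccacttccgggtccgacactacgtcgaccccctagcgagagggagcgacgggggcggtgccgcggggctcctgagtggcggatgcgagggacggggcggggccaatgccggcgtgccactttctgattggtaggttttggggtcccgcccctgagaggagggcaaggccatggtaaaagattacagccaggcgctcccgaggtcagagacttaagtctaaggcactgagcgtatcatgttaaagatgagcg
These lie at chr16:23678639-23678938 (PLK1, plus strand), chr3:44761544-44761843 (KIF15, plus strand), chr17:59155496-59155795 (PRR11, plus strand), chr15:90994486-90994785 (PRC1, minus strand) and chr12:57520465-57520764 (DDIT3, minus strand). Counted from the start site, the hexamer began at -29 in PLK1, -35 in KIF15, -11 in PRR11 and -20 in PRC1. In DDIT3 the capitals mark TGACTCA, the core of the AP-1 element, at -241. That core, searched on both strands (TGACTCA or TGAGTCA) over the 300 bases, was in 4 of 41 promoters of genes that rose at least 2-fold (9.76%), in 0 of 83 of those that fell and in 3.55% of all. The CCAAT box, CCAAT or ATTGG, was in 68.7% of promoters of the 2-fold falls, 46.3% of those of the rises and 36.3% of all. The E2F core (GCGGGAA or TTCCCGC), the CRE core (TGACGTC or GACGTCA) and the ATF4-C/EBP core (TGATGCA or TGCATCA) were searched too. Over the 300 bases they were in 2.44%, 12.2% and 2.44% of promoters of the rises. The shares were 9.64%, 9.64% and 0% for the falls and 8.95%, 4.59% and 2.12% for all. Within 50 bases of the start the E2F core was in 8.43% of the falls and 2.87% of all. H2BC14, CENPI, SGO2 and KIF20A had no CHR hexamer in their windows. Of the largest rises ACTBL2, MRGPRX4, EGR1, TRAF1, SAT1, TNFAIP3, TMEM40, ABCA12 and ANKRA2 had no AP-1 core in theirs. C3 and SH2D2A had no promoter to search. A match describes letters in the sequence and no binding was measured.

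Many replication genes fell too. Of 27 genes of origin licensing and firing 17 fell and 0 rose (median -0.62 with, -0.58 without the array labelled Lo control 3). MCM6, a subunit of the replicative helicase, went from 9.12, 9.30 and 9.30 to 7.42, 7.54 and 7.72 and fell by 1.65. GINS2 and CDC45, which complete that helicase, fell by 1.56 and 1.08, and MCM5 by 0.94. Among 31 fork enzymes 14 fell, led by POLE2, a subunit of the leading-strand polymerase, at -1.39, the primase gene PRIM1 at -1.33 and the clamp loader gene RFC4 at -1.25. RNASEH2A, which removes RNA from DNA, fell by 0.83.

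Genes of recombination repair, chromatin and histones fell in part and 0 rose, while checkpoint genes went both ways. Of 26 genes of homologous recombination and Fanconi repair 13 fell, including BRCA1 at -1.17, FANCI at -1.12, XRCC2 at -1.07 and UBE2T at -0.81. Among 17 damage checkpoint genes 3 fell (CHEK1, WEE1 and CHEK2, at -0.75, -0.52 and -0.51) and HUS1, of the checkpoint clamp, rose by 0.41. WEE1 was close to the threshold, with a limma adjusted p of 0.0496 without the array. CHEK2 was not called without any 1 of the other 5 Lo arrays (limma adjusted p = 0.058 to 0.108). Those fits kept the array labelled Lo control 3 by design, and the part of that array in the lost calls was not tested. With 10 arrays CHEK2 was called (limma adjusted p = 0.000987). Of 23 genes of replication-coupled chromatin and the nuclear lamina 11 fell, with LMNB1 (lamin B1) at -1.26 and UHRF1, which copies DNA methylation, at -1.20. TMPO, a lamina protein, and the histone variant gene H2AZ2 fell by 0.71 and 0.70. Of 47 replication-dependent histone genes 27 fell and 0 rose. H2BC9, H3C1 and H2BC7 were lower by 1.34, 1.15 and 1.14, and in all 3 the array labelled Lo control 3 was the highest of the controls.

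**Figure D3:**
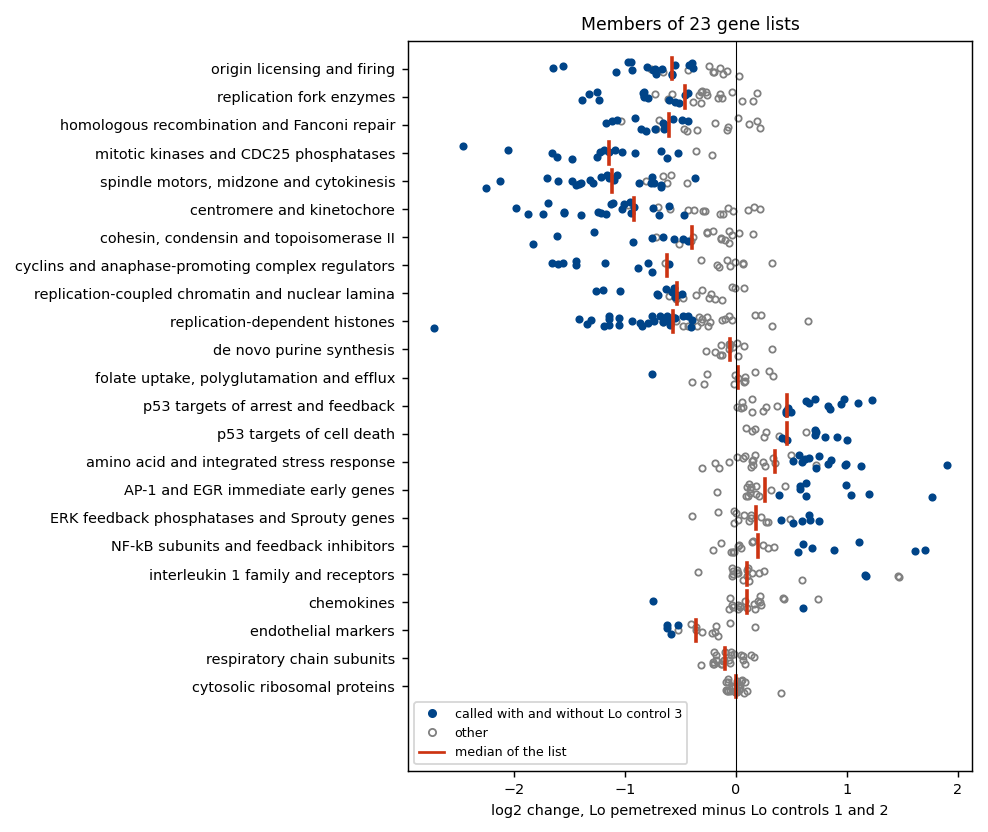
Change of each measured member (log2, treated minus Lo controls 1 and 2) in 23 gene lists, 1 point per gene, with filled points for genes called both with and without the array labelled Lo control 3 and a bar at the median of the list. Lists of replication and mitosis lie left of 0 with medians down to -1.15, p53 and stress lists lie right of 0, and ribosomal proteins have a median at 0.

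TYMS, GART and ATIC, which code for targets of the drug, were not called. TYMS, which codes for thymidylate synthase, the main target of pemetrexed, measured 11.44, 11.73 and 11.53 in controls and 11.11, 11.47 and 11.19 in treated cells. The groups overlapped, and the change of -0.31 ± 0.13 was not called (limma adjusted p = 0.186 with and 0.282 without the array labelled Lo control 3). GART and ATIC, the purine synthesis enzymes that use folate, had changes of 0.05 and -0.04 with all arrays. Of 14 measured genes of de novo purine synthesis 0 changed by both fits. SLC19A1, the reduced folate carrier, and FPGS, which adds the glutamates that retain the drug, were not called either, at -0.01 and -0.04.

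GGH, the hydrolase that removes those glutamates, was the 1 gene of 13 in the list of uptake, polyglutamation and efflux to change. It measured 9.39, 9.70 and 9.40 in controls and 8.79, 8.90 and 8.68 in treated cells and fell 1.63-fold with and 1.69-fold without the array in question (limma adjusted p = 0.00493 and 0.00997). In the list of thymidylate supply and uracil removal 3 of 15 fell and 1 rose. UNG, the uracil-DNA glycosylase, fell by 0.92, SHMT1, which feeds one-carbon units to thymidylate, by 0.84 and DTYMK, thymidylate kinase, by 0.52. TDG, another glycosylase that removes uracil and thymine from mismatches, rose from 7.08, 7.24 and 7.35 to 7.85, 7.76 and 7.88 (0.67). Of 18 genes of deoxynucleotide reduction and salvage the ribonucleotide reductase genes RRM2 and RRM1 fell by 1.24 and 0.87, and UPP1, uridine phosphorylase, rose by 0.76.

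The 12 largest rises were in genes of several functions. ACTBL2, an actin-like gene, had the largest without the array labelled Lo control 3, and with all arrays TNFAIP3 rose more (2.27). ACTBL2 went from 5.84, 6.15 and 5.45 to 7.73, 7.73 and 8.27 (2.10 ± 0.18 with, 1.91 ± 0.17 without, limma adjusted p = 8.12e-05). DDIT3, which codes for the stress factor CHOP, measured 9.35, 9.34 and 8.87 in controls and 11.23, 11.18 and 11.31 after treatment. It was 4.16-fold higher with all arrays and 3.73-fold higher without the array labelled Lo control 3 (limma adjusted p = 0.00104). In both genes that array was the lowest control.

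A receptor, an enzyme and a lipid transporter were among the others. MRGPRX4, a receptor gene, rose by 1.85 without the array, SAT1, the rate-limiting enzyme of polyamine breakdown, by 1.65, and C3, the central complement component, by 1.61. SAT1 was already high in controls, at 10.75, 10.68 and 9.82, and reached 12.34 to 12.38. C3 rose from 7.36, 7.26 and 6.57 to 8.93, 8.93 and 8.91, and its treated values were nearly the same. TMEM40, SH2D2A and ANKRA2 rose by 1.61, 1.58 and 1.44, and ABCA12, a lipid transporter of skin, by 1.60 (2.10 with all arrays).

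Some targets of p53 rose in each of 3 lists and 0 fell. Of 22 targets of arrest and feedback 13 rose (median 0.51 with, 0.46 without the array labelled Lo control 3). GADD45A measured 10.22, 10.31 and 10.24 in controls and 11.38, 11.59 and 11.50 in treated cells, a rise of 1.23 by either fit. SFN (14-3-3 sigma), SERTAD1 and SESN2 rose by 0.97, 0.94 and 0.83. MDM2, the ubiquitin ligase that p53 induces against itself, was high throughout, with controls of 13.24 to 13.34 and treated values of 13.37 to 13.53, and was not called (0.17, limma adjusted p = 0.396). Of 15 death targets 8 rose, among them the TRAIL receptor gene TNFRSF10A at 0.80, TP53I3 at 0.91, the nuclease gene AEN at 0.72 and PERP at 0.46. Of 11 targets in repair and metabolism 4 rose: XPC and DDB2, sensors of helix-distorting damage, at 0.59 and 0.54, CES2 at 0.56 and the translesion polymerase gene POLH at 0.37 (not called without Lo PMX 3, limma adjusted p = 0.0514). In the BCL2 family 3 of 17 rose, PMAIP1 (NOXA) by 1.00, BAK1 by 0.46 and the survival gene MCL1 by 0.35. PMAIP1 was not called without Lo PMX 3 and BAK1 without Lo PMX 1 (limma adjusted p = 0.0524 and 0.0531).

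Other genes of the amino acid and integrated stress response rose beside DDIT3. Of 31 measured 13 rose and 0 fell (median 0.42 with, 0.35 without). PPP1R15A (GADD34), which restores translation, rose by 1.13 and ATF3 by 0.99. ASNS, asparagine synthetase, measured 7.85 and 7.74 in Lo controls 1 and 2, 8.45 in the array labelled Lo control 3 and 8.48 to 8.57 in treated cells. Its change was not called with all arrays (0.50, limma adjusted p = 0.0761) and was called without that array (0.72, adjusted p = 0.00533). Of 19 cytosolic tRNA synthetases 3 rose (AARS1, SARS1 and WARS1, by 0.50, 0.42 and 0.32). No member of the 17 endoplasmic reticulum chaperones changed by both fits, and of 15 heat shock genes 1 rose, HSPB8, from 8.92, 8.87 and 7.67 to between 9.78 and 9.99 (1.02 without the array). Of 26 genes of ribosome biogenesis 3 rose, RRP9, TAF1A and RRN3, the last not called without Lo PMX 2 or Lo PMX 3 (limma adjusted p = 0.0527 and 0.0548).

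Some immediate early genes and their feedback regulators rose 48 h after the drug was added. EGR1, a zinc finger factor of the growth factor response, measured 9.94, 9.80 and 9.03 in controls and 11.58, 11.44 and 11.88 after treatment (2.04 with, 1.76 ± 0.26 without, limma adjusted p = 0.00179). FOSB rose from 7.67, 7.59 and 7.55 to 8.81, 8.70 and 8.98, and FOS from 7.97, 7.81 and 7.73 to 8.85, 8.70 and 9.22. For these AP-1 genes the array labelled Lo control 3 was the lowest control, though by little. In all, 9 of 22 AP-1 and EGR genes rose, KLF4 by 0.63, and 0 fell. Of 20 feedback phosphatase and Sprouty genes 6 rose, with the MAP kinase phosphatase genes DUSP10, DUSP5 and DUSP8 at 0.66, 0.65 and 0.59 and RGS2, which dampens G protein signals, at 0.52. TGFA, an EGF receptor ligand, and GDF15, a stress-induced member of the TGF-beta family, rose by 0.53 and 0.45, 2 of 18 growth factors.

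Among NF-kB and TNF receptor genes the array labelled Lo control 3 bore on some rises and not on others. TNFAIP3, which codes for A20, an NF-kB inhibitor, measured 9.47 and 9.33 in Lo controls 1 and 2, 7.43 in that array and 10.90 to 11.08 in treated cells. It was 4.81-fold higher with all arrays (2.27 ± 0.51, limma adjusted p = 0.0123) and 3.05-fold higher without it (1.61 ± 0.39, adjusted p = 0.0292). TRAF1, an adaptor of TNF receptors, had controls of 6.44, 6.49 and 6.41 and treated values of 8.32, 8.21 and 7.96, so its rise of 1.72 with and 1.70 without was nearly independent of that array. Of 20 NF-kB subunits and inhibitors 7 rose, NFKB2 by 1.11 and the inhibitor genes NFKBIB and NFKBIE by 0.60 and 0.56. NFKBIE was not called without Lo PMX 1 (limma adjusted p = 0.055).

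Of 21 genes of the interleukin 1 family and its receptors 2 rose, IL1A and IL33, with a median change of 0.10 by either fit. With all arrays 5 were called higher and 1 lower, beside 5.6% and 5.14% of all genes. With 10 arrays 5 were called higher and 0 lower, beside 960 and 1058 of all 18417 genes. IL1A measured 10.18 and 10.25 in Lo controls 1 and 2, 8.87 in the array labelled Lo control 3 and 11.32 to 11.44 after treatment, a rise of 3.05-fold with and 2.23-fold without that array. IL33, an alarmin of the same family, rose from 5.28, 5.45 and 5.46 to 6.42, 6.78 and 6.39 and was little affected by it (1.14 and 1.17). IL1B had controls of 8.42, 8.50 and 6.64 and treated values of 10.24, 9.81 and 9.74. Its change was called with all arrays (2.08 ± 0.53, limma adjusted p = 0.0242), not called without the array labelled Lo control 3 (1.47 ± 0.46, adjusted p = 0.084) and called in the fit of 10 arrays (1.47, adjusted p = 8.92e-05). Leaving out 1 of the treated arrays also ended the call for IL1B (limma adjusted p = 0.0603 to 0.089). The receptor gene IL1RL1 changed by 2.054 with and 1.455 without the array labelled Lo control 3 (limma adjusted p = 0.0201 and 0.0663). It was called with 10 arrays (limma adjusted p = 1.02e-05).

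IL6, CXCL8 and PTGS2 were not called with all arrays or without that array. IL6 measured 7.47, 7.63 and 6.53 in controls and 7.97, 8.03 and 7.89 in treated cells (0.75 with and 0.42 without, limma adjusted p = 0.16 and 0.499). CXCL8, the chemokine IL-8 of neutrophils, had controls of 8.30, 8.58 and 7.26 and treated values of 9.13, 9.33 and 9.06 (limma adjusted p = 0.0778 and 0.28). PTGS2 (COX-2) had controls of 9.49, 9.67 and 8.40 and treated values of 10.17 to 10.23 (limma adjusted p = 0.0811 and 0.289). In each of these genes the treated arrays lay above every control. All 3 were called higher in the fit of 10 arrays, with changes of 0.42, 0.74 and 0.63 and limma adjusted p of 0.0102, 0.0418 and 0.00469.

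**Figure D4:**
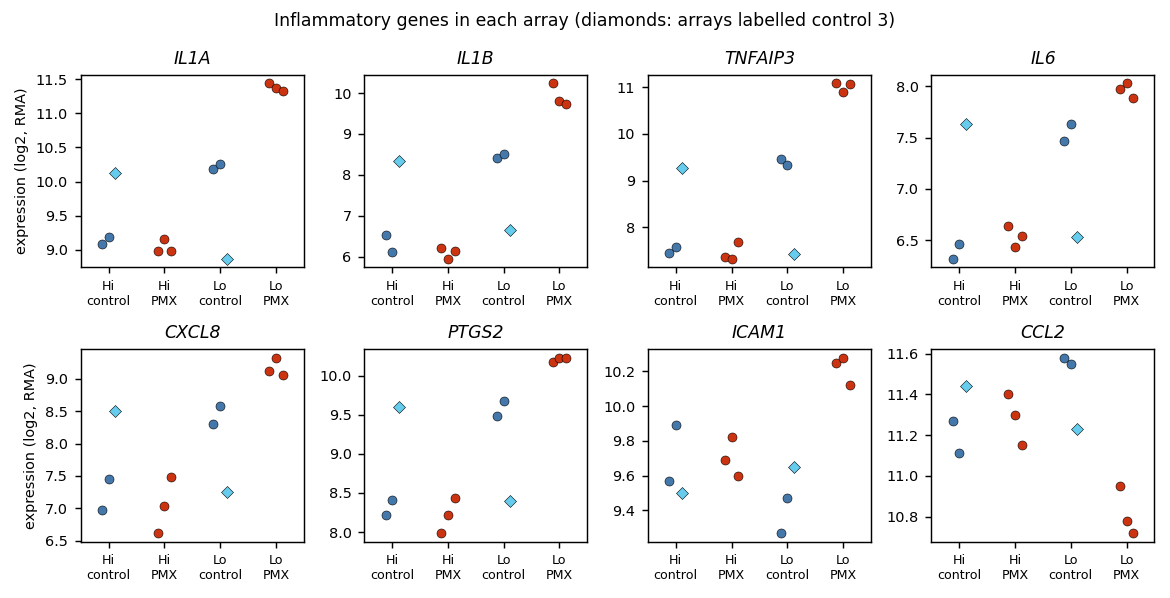
Expression (log2, RMA) of 8 inflammatory genes on all 12 arrays by group, with 1 point per array and diamonds for the arrays labelled control 3. For IL1A, IL1B, TNFAIP3, IL6, CXCL8 and PTGS2 the array labelled Lo control 3 lies near the Hi arrays and the one labelled Hi control 3 near Lo controls 1 and 2, as for IL1B at 6.64 and 8.34.

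Cytokine genes of other families are given beside 3.25% of all genes rising and 2.98% falling. LIF and IL11, both signalling through gp130, rose by 1.10 and 1.14, 2 of 15 in their list. CCL2 (MCP-1), the chemokine for monocytes, fell from 11.58, 11.55 and 11.23 to 10.95, 10.78 and 10.72 (-0.64 with, -0.75 without, limma adjusted p = 0.00176). CCL26, a chemokine for eosinophils, rose by 0.60 from a low level. They were the 2 of 21 chemokines that changed. Of 26 TNF superfamily ligand and receptor genes 4 rose and 1 fell. TNFRSF9 (4-1BB) rose from 6.15, 6.22 and 6.13 to 7.34, 7.51 and 7.55, and TNFRSF10B, a TRAIL receptor gene, by 0.42. TNFSF18, the ligand GITRL, fell by 0.91.

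Of 17 leukocyte adhesion genes 1 rose and 1 fell, beside 3.25% and 2.98% of all genes. ICAM1, a ligand of leukocyte integrins, rose from 9.27, 9.47 and 9.65 to 10.25, 10.28 and 10.12 (0.76 with, 0.85 without, limma adjusted p = 0.00129), and SELP, the P-selectin gene, fell by 0.88. VCAM1 and SELE, 2 adhesion genes of cytokine-activated endothelium, were low, at 5.89, 5.87 and 5.93 and at 5.19, 5.20 and 5.16 in treated cells, within the range of the controls. Interferon-stimulated genes shifted with the array labelled Lo control 3: the median of 32 was 0.35 with and 0.15 without it, and 4 rose by both fits. These were TAP1, which loads peptides for antigen presentation, at 0.64, IRF7 at 0.64, IRF1 at 0.53 and OAS3 at 0.43. Of 21 prostanoid genes 2 fell, PTGIS (prostacyclin synthase) by 0.70 and TBXAS1 (thromboxane synthase) by 0.37. Among 26 complement and coagulation genes C3 and C1S rose by 1.61 and 0.88, and C5 and F2R, the thrombin receptor gene, fell by 0.54 and 0.32.

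Of 20 vasoactive peptide and receptor genes 2 fell, EDN1 and APLN, and 1 rose. EDN1, the vasoconstrictor endothelin-1, measured 11.47 and 11.46 in Lo controls 1 and 2, 10.61 in the array labelled Lo control 3 and 10.27 to 10.38 in treated cells. The fall was 1.80-fold with and 2.20-fold without that array (limma adjusted p = 0.0197 and 0.000826). Without any 1 of the other 5 Lo arrays EDN1 was not called (limma adjusted p = 0.0516 to 0.0783). APLN, which codes for apelin, fell by 0.57, a call lost without any 1 of those 5 arrays or of 3 Hi arrays. A fit without 1 of those arrays keeps the array labelled Lo control 3 by design, and the part of that array in the lost calls was not tested. With 10 arrays EDN1 and APLN were called (limma adjusted p = 2.78e-05 and 0.00292). BDKRB1, the inducible bradykinin receptor gene, rose by 0.78. Among 19 VEGF, angiopoietin and ephrin genes 1 rose and 2 fell: VEGFA rose by 0.76, and its co-receptor gene NRP1 and the angiopoietin receptor gene TEK fell by 0.72 and 0.62. NOS3, the endothelial nitric oxide synthase, overlapped between groups, with controls of 10.67 to 11.07 and treated values of 10.66 to 11.17.

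Of 15 endothelial markers 4 fell and 0 rose: EGFL7 and TEK by 0.62 each, and the transcription factor genes ERG and FLI1 by 0.59 and 0.52. The median of the 15 was -0.62 with and -0.36 without the array labelled Lo control 3, which had higher endothelial markers than the other controls. Of 24 matrix protease and inhibitor genes MMP3 rose by 0.58, and TIMP3, MMP2 and MMP16 fell by 0.35, 0.37 and 0.39, though for MMP16 the mean of its probe sets over all arrays gave -0.16 (limma adjusted p = 0.505). MMP2 was not called without Lo PMX 3 (limma adjusted p = 0.0571), nor MMP16 without Lo PMX 1 or Lo control 2 (0.0661 and 0.0604). ITGA4, an integrin subunit of leukocyte and vascular adhesion, fell by 0.50. That call was lost without any 1 of 4 Lo arrays (limma adjusted p = 0.0642 to 0.113) and was made with 10 arrays (limma adjusted p = 0.00588). THBS1, the angiogenesis inhibitor thrombospondin-1, fell by 0.47. SERPINB4, a protease inhibitor, rose from 5.06, 5.33 and 4.87 to 6.02, 6.37 and 7.14 with a wide spread of the treated arrays, and SERPINB1 rose by 0.41. TGFBR1 and BAMBI, which codes for a decoy receptor of the TGF-beta family, rose by 0.55 and 0.75, 2 of 24 genes in their list.

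Lists of metabolic and organelle genes held 0 to 4 genes called by both fits, beside 6.22% of all genes. Of 25 lysosome and proton pump genes 4 rose, ATP6V1D, NPC1, MCOLN1 and ATP6V1B2, by 0.56, 0.47, 0.38 and 0.36. ATP6V0D2, a proton pump gene, had the largest change in the list (2.67 with, 1.89 without the array labelled Lo control 3). It was called with all arrays (limma adjusted p = 0.029) and with 10 arrays (limma adjusted p = 0.00033). Without the array labelled Lo control 3 alone it was not (limma adjusted p = 0.104). MCOLN1 was not called without any 1 of 8 arrays (limma adjusted p = 0.0593 to 0.158). SQSTM1, the autophagy receptor p62, rose by 0.44, 1 of 20 autophagy genes. Of 20 NRF2 targets OSGIN1 and HMOX1 (heme oxygenase 1) rose by 0.66 and 0.42 and NQO1, a quinone reductase, fell by 0.35. HMOX1 was not called without Lo PMX 1, Lo PMX 2 or Lo control 1 (limma adjusted p = 0.0601 to 0.066). PFKFB3, an activator of glycolysis, and NDRG1 rose by 0.64 and 0.54, 2 of 23 glycolysis and hypoxia genes. SLC30A1, the zinc exporter gene, rose by 0.35 in the list of 10 metallothionein-related genes. Called by both fits were 0 of 16 cholesterol synthesis genes, 0 of 15 Notch pathway genes, 0 of 23 respiratory chain subunits and 0 of 26 cytosolic ribosomal proteins. The medians of these 4 lists lay between -0.10 and 0.09 without the array labelled Lo control 3.

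The folate-replete cells gave the background for the same drug, dose and time. In Hi cells 0 genes (0%) were called in limma with Benjamini-Hochberg adjustment, with all arrays or with 10. An unadjusted limma p under 0.05 was found for 266 and 335 of the 18417 genes. Both counts lie below the share of 0.05 that no response at all would give. The lack of calls therefore does not show that Hi cells did not respond. These fits held no term for the replicate number, and Hi calls with such a term were not counted. Whether same-numbered Hi arrays belong together was not tested. The difference between the Lo and the Hi response was tested as an interaction, which called 886 genes with all arrays (4.81%) and 767 with 10 arrays (4.16%), 605 of them in both. Of the 1146 genes that changed in Lo cells, 578 were called in both of these tests. All 24 genes with the largest changes in Lo cells were among the genes called in both. They were chosen by their Lo change, which is part of the difference tested, so their calls are no separate support.

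Single genes show the size of this contrast in the fit of 10 arrays. PLK1 changed by -2.46 ± 0.13 in Lo cells and by 0.02 ± 0.13 in Hi cells, a difference of -2.48 ± 0.19 (limma adjusted p = 0.000104). DDIT3 changed by 1.90 ± 0.13 and 0.12 ± 0.13 (difference 1.78, limma adjusted p = 0.000447). TNFAIP3 changed by 1.61 ± 0.11 and -0.05 ± 0.11 (difference 1.66, limma adjusted p = 0.000247). CDKN1A differed too, with a response 0.63 higher in Lo cells (limma adjusted p = 0.0104), as did ICAM1, by 0.88 (limma adjusted p = 0.00806), and CCL2, by -0.84 (limma adjusted p = 0.00523). For IL6 and CXCL8 the difference was not called with 10 arrays (0.27 and 0.91, limma adjusted p = 0.338 and 0.13), and for MKI67 it was not either (-0.82, limma adjusted p = 0.111).

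**Figure D5:**
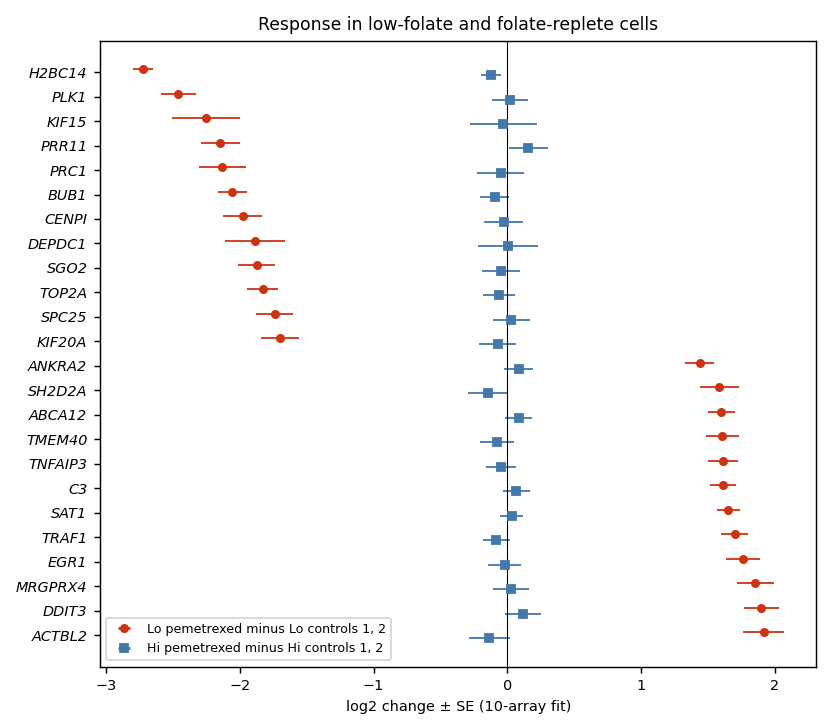
Change on pemetrexed (log2, ± SE of the fit of 10 arrays, without both arrays labelled control 3) of the 24 genes with the largest changes in Lo cells, in Lo cells (circles) and Hi cells (squares). Hi responses lie between -0.14 and 0.16, while Lo responses reach -2.73 for H2BC14 and 1.91 for ACTBL2.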

How the data were processed

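Total RNA was hybridised to Affymetrix arrays after biotin labelling, per the labels' protocols. The authors deposited 1 log2 value per probe set and array, computed by RMA (a multi-array average) with Partek 6.5 per the submitters' processing notes. Its settings, the detection calls and any scan batch are not given in the sources used here, so no threshold of detection was set. The precision rests on 3 arrays a group.

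Of 33297 probe sets, 19460 had 1 gene symbol in the platform annotation, 1754 had several and 12083 none. Genes were named from the first kind and, for 769 genes with several such probe sets, read from the brightest by mean over 12 arrays, which left 18417 genes. RefSeq genes of GRCh38.p14 held 19429 of the 19460 Entrez identifiers. No further normalization or filter was applied. List genes with no probe set of the first kind were not analysed here, and some genes stand in several lists.

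Group means were fitted with limma 3.58.1 (R 4.3.3, lmFit and eBayes) on 12 arrays with 8 residual degrees of freedom, on 11 without the array labelled Lo control 3 (7) and on 10 without both arrays labelled control 3 (6). The fit of 11 arrays still holds the array labelled Hi control 3 in its spread. Tests were two-sided with Benjamini-Hochberg adjustment over all 18417 genes, called under 0.05. A value after ± is a standard error. All replicates are of 1 line, and p-values reflect only their spread. The fit was tested on simulated data.

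The genes and lists were chosen with earlier results of these data known, so lists are described by counts and medians, with no test of the list. Named genes were the 12 largest rises and 12 largest falls called in both fits with groups apart, ranked without the array labelled Lo control 3, up to 4 genes a list by adjusted p, and a set of genes of the drug's pathway, cell cycle and inflammation. Alternatives were other sets of arrays, a replicate block, a filter on dim genes, another probe set rule, other normalization and other variance models. Promoter sequences are RefSeq's, with 1 promoter a gene.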

Additional observations from a re-analysis of the deposited data

Results flagged for a closer look

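Pemetrexed acted differently in Lo and Hi cells, and the test of that difference brings these results here: 886 genes were called in limma's interaction (Lo response minus Hi response, 12 arrays, Benjamini-Hochberg adjusted p under 0.05).

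The genes given here were chosen by their Lo change, which is part of this difference, so large values were likely from the choice alone. Among the 12 genes that rose most in Lo cells, the difference on the log2 scale with all arrays was 2.90 for TNFAIP3, 2.52 for ABCA12, 2.42 for EGR1, 2.36 for ACTBL2 and 2.35 for SAT1. It was 2.29 for DDIT3, 2.23 for C3, 2.13 for TMEM40, 2.13 for MRGPRX4 and 2.11 for SH2D2A. TRAF1 and ANKRA2 differed by 1.83 and 1.82. With 10 arrays, without both arrays labelled control 3, the difference was smaller for each of the 12, at 1.66 for TNFAIP3 (limma adjusted p = 0.000247), 1.52 for ABCA12 and 1.78 for TRAF1.

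Among the 12 genes that fell most, the difference was -2.88 for H2BC14, -2.40 for PLK1, -2.22 for PRR11, -2.21 for KIF15 and -2.02 for PRC1. CENPI, SPC25, SGO2 and BUB1 differed by -1.93, -1.88, -1.81 and -1.81. DEPDC1, TOP2A and KIF20A differed by -1.63, -1.56 and -1.40, and with 10 arrays by -1.89, -1.76 and -1.63. What sets the response of Lo cells apart from that of Hi cells was not tested.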

How the results depend on the processing

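Of 176 named genes 163 were called with all arrays, 143 kept their call under every alternative run on them and 20 lost it under at least 1. There were 23 alternatives, and 22 for IL33, MRGPRX4, C1S, CCL26 and SERPINB4, 5 genes too dim for the filter on dim genes. With 1 array left out 14 lost it (APLN, BAK1, CHEK2, EDN1, HMOX1, IL1B, ITGA4, MCOLN1, MMP16, MMP2, NFKBIE, PMAIP1, POLH and RRN3), mostly without Lo PMX 1 or Lo PMX 3 (10 genes each). The other 6 (TNFAIP3, IL1A, WEE1, HSPB8, C5 and BAMBI) lost it only without variance moderation, with limma adjusted p of 0.0513 to 0.0747. None of the 163 changed direction, and all 163 were called in the fit of 10 arrays. Against 1978 genes called, 1262 were called without variance moderation and 3385 with a replicate block on 10 arrays. A block on 12 arrays gave 2248. Deviations of same-numbered Lo arrays correlated at 0.338, 0.217 and 0.0278, not all over the 0.1 asked for pairing. Without the array labelled Lo control 3 the 2 pairs left correlated at 0.477 and 0.306. Hi arrays were not part of this check, so whether the numbers pair the samples is unsettled. The main fits held no term for pairing. Leaving out 1 array gave 1170 to 2563, with 1170 without Lo PMX 3, 1210 without the array labelled Lo control 3 and 1282 without Lo PMX 1. For called genes changed at least 2-fold (229) the range was 166 to 262, and the block on 12 arrays gave 221. For the interaction (886) there were 291 genes without variance moderation, 1738 with the block on 10 arrays, 994 with that on 12 and 443 to 956 without 1 array, with 443, 584 and 568 without Lo PMX 3, 2 and 1, 572 without the array labelled Lo control 3, and 506 and 539 without Hi PMX 2 and 3. The cause was not tested.

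Reversals were all in 7 genes that were not called, with values near 0. GART was at -0.026 with 10 arrays or 5 Lo arrays, -0.041 with the block on 10 arrays and -0.026 to 0.123 without 1 array. ATIC ranged from -0.135 to 0.019 without 1 array. SLC19A1 was at 0.006 after quantile normalization and at -0.027 to 0.007 without 1 array. FPGS was at 0.013 with the block on 10 arrays and -0.088 to 0.028 without 1 array. VCAM1 was at -0.001 with 10 arrays or 5 Lo arrays, -0.032 after quantile normalization and -0.044 to 0.053 without 1 array. SELE was at -0.041 with 10 arrays or 5 Lo arrays, -0.027 with the block on 10 arrays, -0.022 after quantile normalization and -0.041 to 0.055 without 1 array. NOS3 was at 0.090 with 10 arrays or 5 Lo arrays, 0.166 with the block on 10 arrays, 0.007 after quantile normalization, 0.006 after centring and -0.147 to 0.111 without 1 array.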

Other observations

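Some genes of the skin barrier rose in treated Lo cells. This list was drawn up after the rise of ABCA12 and similar genes had been seen, so its count is a description: of 65 measured genes of the cornified envelope and skin lipid barrier 12 rose and 0 fell, beside 3.25% of all genes rising. FLG, which codes for filaggrin, measured 6.92, 6.89 and 6.19 in controls and 7.87, 8.10 and 7.49 in treated cells. LCE1C and KPRP, of the cornified envelope, rose by 1.16 and 1.09 without the array labelled Lo control 3, and ALOXE3, a lipoxygenase of the epidermal lipid barrier, by 1.31. The median of the list was 0.09 with or without that array, and 53 of its members were not called in both fits.

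The polyamine pathway and the GIMAP family were also listed after their values had been seen. Of 18 polyamine genes 3 rose: SAT1, SMOX, which oxidises spermine, by 0.64 and ARG2, a mitochondrial arginase, from 7.79, 8.04 and 7.71 to 9.32, 9.25 and 8.97. Of 5 GIMAP genes, GTPases best known from lymphocytes and also expressed in endothelium, 3 fell: GIMAP4, GIMAP2 and GIMAP6, by 1.14, 0.92 and 0.50 without the array labelled Lo control 3. GIMAP4 measured 7.06 and 6.94 in Lo controls 1 and 2, 7.64 in that array and 5.76 to 6.06 in treated cells.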
